A study of Homo sapiens with 16 samples.

Results

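UACC62R, a human melanoma line made resistant to vemurafenib, was compared with its parental line UACC62P while both were untreated with CCG-222740. The labels place 4 of the 16 libraries in this comparison, 2 of each line at 0 h, and all 20280 genes with enough reads were tested. UACC62P is an established BRAF-mutant melanoma line, and vemurafenib is a drug that inhibits the mutant BRAF kinase. UACC62R was selected from it over 2 months in 2 uM vemurafenib and stayed in that drug, so that its 0 h libraries are without CCG-222740 but not without vemurafenib. For UACC62P no vemurafenib is stated, so resistance and the drug in the medium cannot be told apart. Both lines grew in the same serum-containing medium, and the labels do not say whether UACC62R is a clone or a pool. It is 1 derivative of 1 line, so the differences belong to this pair.

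The wider series also exposed both lines to 10 uM CCG-222740, a compound that blocks gene activation through the MRTF coactivators of SRF, for 2, 6 or 24 h, with 2 libraries in each of 8 groups. The 4 untreated libraries held 28.2 to 31.0 M reads in genes, so sampling error is small except for genes with a few reads. The labels do not say that replicates were separate cultures, and p-values therefore measure only the spread between these libraries, which may be technical. In the fit, 15 libraries share 1 estimate of spread. The 16th, labelled UACC62P at 2 h, replicate 1, was like UACC62R in its counts and was left out; it belongs to neither untreated group. The labels describe culture differently for untreated and treated libraries; whether the 4 untreated ones formed a batch of their own was not tested.

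Melanocytes arise from the neural crest under the transcription factors SOX10, PAX3 and MITF, which turn on the pigment genes. Melanomas can lose this programme and take on a neural-crest-like or a mesenchymal, invasive state, and the loss is known to accompany resistance to BRAF inhibitors. Growth in BRAF-mutant melanoma normally runs through ERK, which also induces its own inhibitors, and receptor tyrosine kinases can feed the same pathway from the cell surface. Matrix, integrin and cytokine genes are among the known targets of AP-1 and of TEAD with its coactivators YAP and TAZ.

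The lines differed in 53.9% of the genes tested. In UACC62R 5642 genes (27.8%) were higher and 5297 (26.1%) were lower at a Benjamini-Hochberg adjusted p under 0.05 by edgeR's quasi-likelihood F test. Tested against a 2-fold difference rather than against 0, 2305 genes (11.4%) were higher and 1238 (6.1%) lower, so changes beyond 2-fold were more often upward. Among the tested genes 606 had 0 reads in untreated UACC62P and could not come out lower. In untreated UACC62R 136 had 0 reads and could not come out higher. How much of the upward excess comes from such genes was not tested. With the left-out library added, the common dispersion, edgeR's measure of spread, was 0.0622 in place of 0.00985, 4167 genes were higher and 3680 lower, and only 1 higher and 0 lower passed the 2-fold test. The median log2 fold change over all genes was 0.02, and 66.1% of genes lay within 2-fold either way. The genes higher beyond 2-fold took 2.21 and 2.05% of the reads of the UACC62P libraries and 12.3 and 11.9% of those of UACC62R. Those lower beyond 2-fold went from 11 and 10.5% to 2.94 and 2.82%. Both libraries of one line lay above both of the other for 75.7% of genes, so non-overlap of 2 against 2 says little by itself here.

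**Figure D1:**
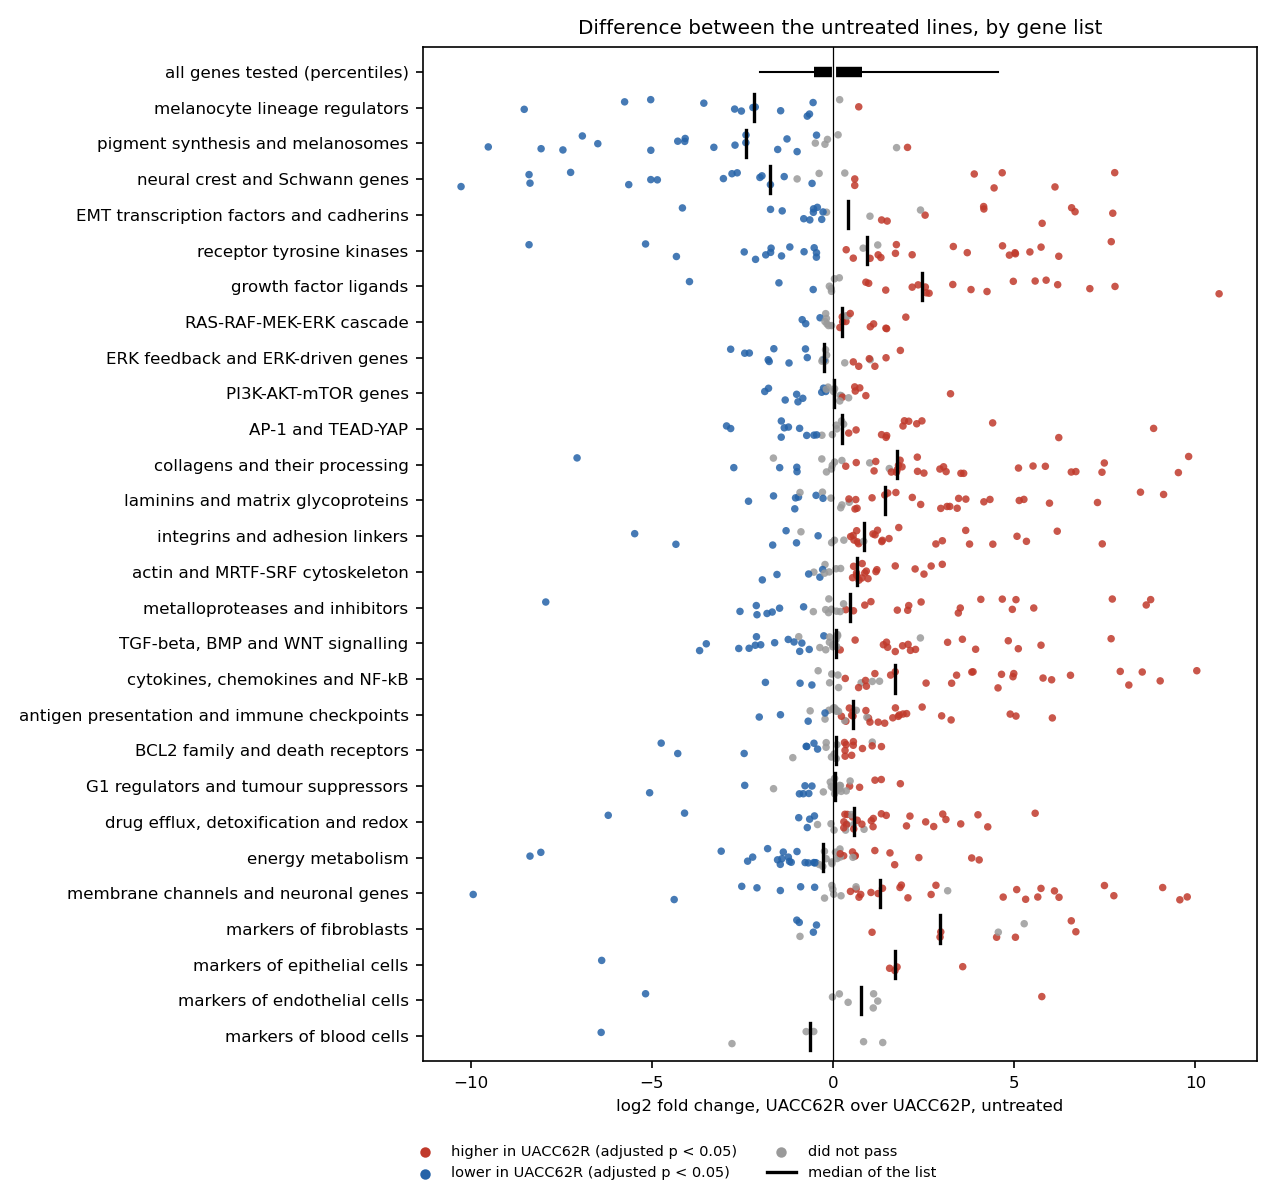
Each point is 1 tested member of a gene list, placed by its log2 fold change (UACC62R over UACC62P, untreated) and coloured by whether it passed an adjusted p of 0.05 upward or downward or did not pass. Black bars are list medians, and the top row gives the 5th, 25th, 50th, 75th and 95th percentiles of all 20280 genes; medians of the pigment and lineage lists lie below -2, and those of growth factors, collagens and cytokines lie above 1.5.

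The transcription factors of the melanocyte lineage fell together. Of 14 tested regulators, 12 were lower (85.7%, against 26.1% of all genes) and 1 higher, 8 of the 12 beyond 2-fold (57.1%, against 6.1%). The median log2 fold change was -2.18. SOX10 (ENSG00000100146), which specifies neural crest and melanocyte fate, stood at 919 and 787 CPM (counts scaled by edgeR's TMM method to a common library size) in UACC62P and 26 and 26.3 CPM in UACC62R, a log2 fold change of -5.03 ± 0.12 (SE, adjusted p = 2.26e-13). As in all bulk RNA, fewer cells with a transcript and less of it per cell cannot be told apart. MITF (ENSG00000187098), the master regulator of pigment genes, stood at 248 and 219 CPM and at 53.4 and 47.6 CPM, a log2 fold change of -2.21 ± 0.11 (SE, adjusted p = 4.23e-10). Neither gene's libraries overlapped between the lines, as for 75.7% of all genes, and MITF was lower by 4.62-fold. SOX6, a partner of SOX10 in the neural crest, fell from 159 and 138 CPM to 3.16 and 2.38 CPM. TBX2, a T-box repressor that MITF regulates, fell from 158 and 171 CPM to 13.8 and 14 CPM, and LEF1, a mediator of WNT signals, from 114 and 115 CPM to 20 and 19.8 CPM. IRF4, which cooperates with MITF on TYR, went from 11.3 and 15.3 CPM to 0 and 0.0626 CPM, the latter being 2 reads. PAX3 differed less, with 40.9 and 35.8 CPM against 24.8 and 24.1 CPM (log2 fold change -0.65). The exception was ETV1, an ETS factor, at 123 and 116 CPM against 204 and 186 CPM. TFAP2A, which also specifies melanocytes, did not pass (58.4 and 53.7 CPM against 62.6 and 64.7 CPM, adjusted p = 0.156).

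Pigment genes were affected in the same direction but unevenly. Of 23 tested genes of pigment synthesis and melanosomes, 17 were lower (73.9%, against 26.1% of all genes), 15 of them beyond 2-fold (65.2%, against 6.1%). Only 1 was higher (2 with DESeq2 size factors), and the median log2 fold change was -2.40. TYR (ENSG00000077498), the rate-limiting enzyme of melanin synthesis, stood at 144 and 143 CPM in UACC62P and 0.231 and 0.157 CPM in UACC62R, the largest fall of the list. MLANA, a melanosomal antigen used to diagnose melanoma, went from 128 and 130 CPM to 0.494 and 0.470 CPM. SLC24A5, an ion exchanger of the melanosome, went from 87.3 and 78.0 CPM to 1.15 and 0.689 CPM, and EDNRB, the endothelin receptor of melanoblasts, from 77.3 and 74.7 CPM to 2.27 and 2.38 CPM. GPNMB, a lysosomal and melanosomal glycoprotein, retained 534 and 522 CPM of 1254 and 1292 CPM. MLPH, the adaptor that joins melanosomes to myosin, was the member that rose, from 79.3 and 74.1 CPM to 327 and 311 CPM. Its partner RAB27A did not pass (37.9 and 40.1 CPM against 34.7 and 35.4 CPM, adjusted p = 0.137).

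The melanoma identity of both lines was read against such markers. UACC62P had SOX10, MITF, TYR and MLANA but little PMEL (1.45 and 2.16 CPM) and TYRP1 (0.693 and 1.19 CPM), so it is only partly pigment-like by RNA. UACC62R had none of TYR, MLANA, PMEL, DCT or TYRP1 above 1 CPM in either library, and is called here a melanoma line by its origin. The tumour antigen PRAME persisted, at 540 and 488 CPM against 442 and 441 CPM, and was lower, a call that 5 of 11 alternatives did not keep (adjusted p from 0.0654 to 0.166): without UACC62P replicate 1, without UACC62R replicate 2, with all 16 libraries, with the 4 untreated ones alone and with scaling by library size. MAGEA3, another, did not pass (88.4 and 99.8 CPM against 90.8 and 98.4 CPM, adjusted p = 0.95). MAGEA3 has near-identical copies, so its value is uncertain.

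The 300-base RefSeq promoter windows (GRCh38.p14, 250 bases before to 50 from the gene start) were searched on both strands for CATGTG, the core of the M-box that MITF binds. Among genes lower in UACC62R from the pigment list, 12 of 17 had a window, and 7 of their 18 windows (38.9%) held the motif, against 8.12% of the 18225 windows of all tested genes. Such a match describes letters and not binding, and the list includes genes known as MITF targets. The TYR window (chr11:89177625-89177924, plus strand) is shown because TYR fell the most of the list. Its capitals mark CATGTG, which starts 104 and 12 bases before the gene start.
TYR: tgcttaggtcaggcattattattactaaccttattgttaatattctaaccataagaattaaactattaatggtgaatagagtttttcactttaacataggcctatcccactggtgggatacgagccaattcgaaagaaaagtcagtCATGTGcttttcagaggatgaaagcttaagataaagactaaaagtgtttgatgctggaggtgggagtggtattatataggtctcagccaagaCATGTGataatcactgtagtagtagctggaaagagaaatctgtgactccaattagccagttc

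Glial and neural crest genes were more often lower, with single members strongly higher. Of 25 tested, 15 were lower (60%, against 26.1% of all genes) and 7 higher (28%, near the 27.8% of all genes). The median log2 fold change was -1.73. S100B, a calcium-binding protein of glia and melanocytic cells, went from 397 and 411 CPM to 3.16 and 2.2 CPM. ERBB3 (ENSG00000065361), the neuregulin receptor of the Schwann and melanocyte lineage, went from 387 and 367 CPM to 1.15 and 1.10 CPM. Against these, SOX9 (ENSG00000125398), a relative of SOX10 that favours mesenchymal and cartilage fates, rose from 2.18 and 1.62 CPM to 141 and 125 CPM, a log2 fold change of 6.12 ± 0.26 (SE). SOX9 and SOX10 therefore went in opposite directions. SOX2, a stem cell factor of the neural crest, was lower, at 6.37 and 3.57 CPM against 0.396 and 0.814 CPM. MBP, a myelin gene, was higher (0.346 and 0.721 CPM against 15.7 and 11.5 CPM), as was AQP1, a water channel of neural crest cells (1.49 and 0.540 CPM against 23.3 and 21.4 CPM). NGFR, the receptor that marks the neural-crest-like state, was under 2 CPM in every library and did not pass (adjusted p = 0.0573; lower with the replicate block, adjusted p = 0.027, with no filter, adjusted p = 0.044, and without UACC62R replicate 1, adjusted p = 0.0198).

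The list of epithelial-mesenchymal transition (EMT), cadherins and junctions had 22 tested genes. In it 9 were higher (40.9%, against 27.8% of all genes) and 10 lower (45.5%, against 26.1%, and 6 lower with all 16 libraries). The median log2 fold change was 0.42. Cadherins and EMT transcription factors lay apart. Of 9 tested EMT factors, which repress epithelial genes, 6 were lower (66.7%, against 26.1% of all genes) and 2 higher (22.2%, against 27.8%). ZEB2, usually found in differentiated melanocytes, stood at 127 and 123 CPM against 46.5 and 48.3 CPM, and SNAI2 at 82.2 and 90.9 CPM against 46.8 and 52.1 CPM. PRRX1, a mesenchymal homeobox factor, fell from 321 and 329 CPM to 101 and 95.3 CPM, and TWIST1 from 25.6 and 22.4 CPM to 16.4 and 14.5 CPM. ZEB1, usually linked with the dedifferentiated state, did not pass (49.6 and 41.5 CPM against 39.6 and 40.9 CPM, adjusted p = 0.218). All 5 cadherins called among 6 tested were higher, with a median log2 fold change of 6.18. CDH3 and CDH11 had 0 reads in UACC62P against 25 and 14 in UACC62R, and CDH6 had 1 against 289. A gene with 0 reads in UACC62P could not come out lower. Fold changes of such genes depend on edgeR's prior count, so the median is uncertain. CDH2, N-cadherin, stood at 60.6 and 59.6 CPM against 349 and 351 CPM, and CDH13, a cadherin with a lipid anchor, at 0.658 and 0.540 CPM against 62.8 and 61.0 CPM. CDH1, E-cadherin, had 0 reads in all 4 libraries, so no loss of it could be seen. VIM, the mesenchymal filament protein, was already at 2797 and 2895 CPM in UACC62P and was lower in UACC62R (2164 and 2055 CPM), while CLDN1, a tight junction protein, fell from 38.3 and 33.1 CPM to 1.45 and 2.54 CPM.

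**Figure D2:**
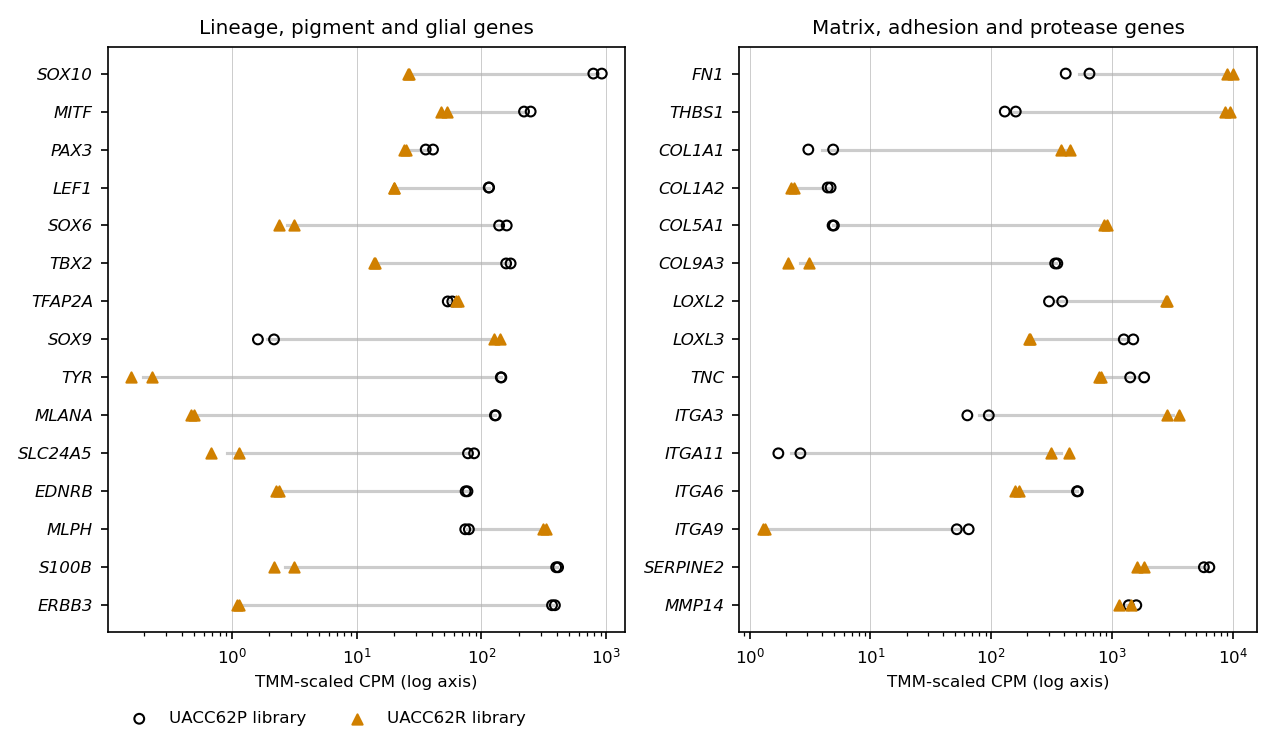
TMM-scaled CPM of single genes on a log axis, with an open circle for each UACC62P library and a triangle for each UACC62R library, joined at the group means. TYR, MLANA, S100B and ERBB3 lie far to the left in UACC62R while SOX9, THBS1 and COL5A1 lie far to the right, and the lines lie close together for TFAP2A and MMP14, which did not pass.

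Receptor tyrosine kinases differed in both directions. Of 34 tested, 18 were higher (52.9%, against 27.8% of all genes) and 14 lower (41.2%, against 26.1%), so 2 did not pass. Beyond 2-fold 12 were higher (35.3%, against 11.4%) and 8 lower (23.5%, against 6.1%). The median log2 fold change was 0.93. AXL (ENSG00000167601), the GAS6 receptor associated with drug-tolerant melanoma, stood at 3.43 and 3.17 CPM in UACC62P and 229 and 267 CPM in UACC62R, whereas TYRO3 and MERTK, the other two receptors of its family, were lower. TYRO3 fell from 157 and 145 CPM to 45.4 and 46.4 CPM. In the EGFR family the same split appeared, with EGFR at 26.2 and 21.0 CPM against 78.2 and 80.5 CPM (log2 fold change 1.75 ± 0.12, SE) and ERBB3 and ERBB4 nearly lost. ERBB4 was at 6.68 and 5.69 CPM against 0.462 and 0.157 CPM. ERBB2, the partner of both, was higher by 2.03-fold.

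Among the other receptors, MET, which binds HGF, went from 20.3 and 20.4 CPM to 237 and 293 CPM and EPHA2, an ephrin receptor, from 18.7 and 11.9 CPM to 481 and 413 CPM. PDGFRB went from 0.312 and 0.504 CPM to 14.7 and 12.2 CPM, and CSF1R from 0.208 and 0.180 CPM to 11.4 and 9.83 CPM. FGFR1 was higher by 4.54-fold while FGFR4 was lower, and ROR1 and ROR2, receptors for WNT5A, went in opposite directions. ROR1 fell from 47.1 and 45.7 CPM to 19.0 and 15.7 CPM, while ROR2 had 1 read in the UACC62P libraries together and 4.81 and 4.13 CPM in UACC62R. IGF1R was lower, at 130 and 107 CPM against 82.1 and 83.0 CPM, but not with all 16 libraries (adjusted p = 0.0656).

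Growth factor genes were mostly higher. Of 26 tested growth factors, 18 were higher (69.2%, against 27.8% of all genes) and 3 lower (11.5%, against 26.1%). Beyond 2-fold 16 were higher (61.5%, against 11.4%), and the median log2 fold change was 2.45. All 7 tested ligands of the EGFR family were higher, among them AREG, which shares reads with a near-identical copy and had 0 reads against 19. AREG could thus not come out lower, BTC had 1 read in UACC62P against 80, and EREG was not tested. TGFA, a ligand of EGFR, stood at 142 and 132 CPM against 836 and 767 CPM, and NRG1, a neuregulin that binds ERBB3 and ERBB4, at 0.277 and 0.288 CPM against 34.3 and 43.6 CPM. NRG1 and both of its receptors thus lay on opposite sides. GAS6, the ligand of AXL, was higher by 9.88-fold, from 3.29 and 2.56 CPM to 27.8 and 30.1 CPM. VEGFC went from 6.89 and 6.63 CPM to 88.9 and 100.5 CPM and PDGFC from 13.8 and 10.6 CPM to 72.7 and 80.5 CPM. The neurotrophin BDNF (0.104 and 0.180 CPM against 30.8 and 33.2 CPM) was higher, as was its receptor NTRK2 (0.139 and 0.108 CPM against 4.25 and 4.04 CPM). FGF13, an intracellular FGF relative, was the largest fall (71.5 and 70.4 CPM against 4.22 and 4.88 CPM). KITLG, FGF2 and PDGFA did not pass, though FGF2 was higher without UACC62R replicate 1 (adjusted p = 0.0423). HGF, the ligand of MET, had too few reads to be tested.

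**Figure D3:**
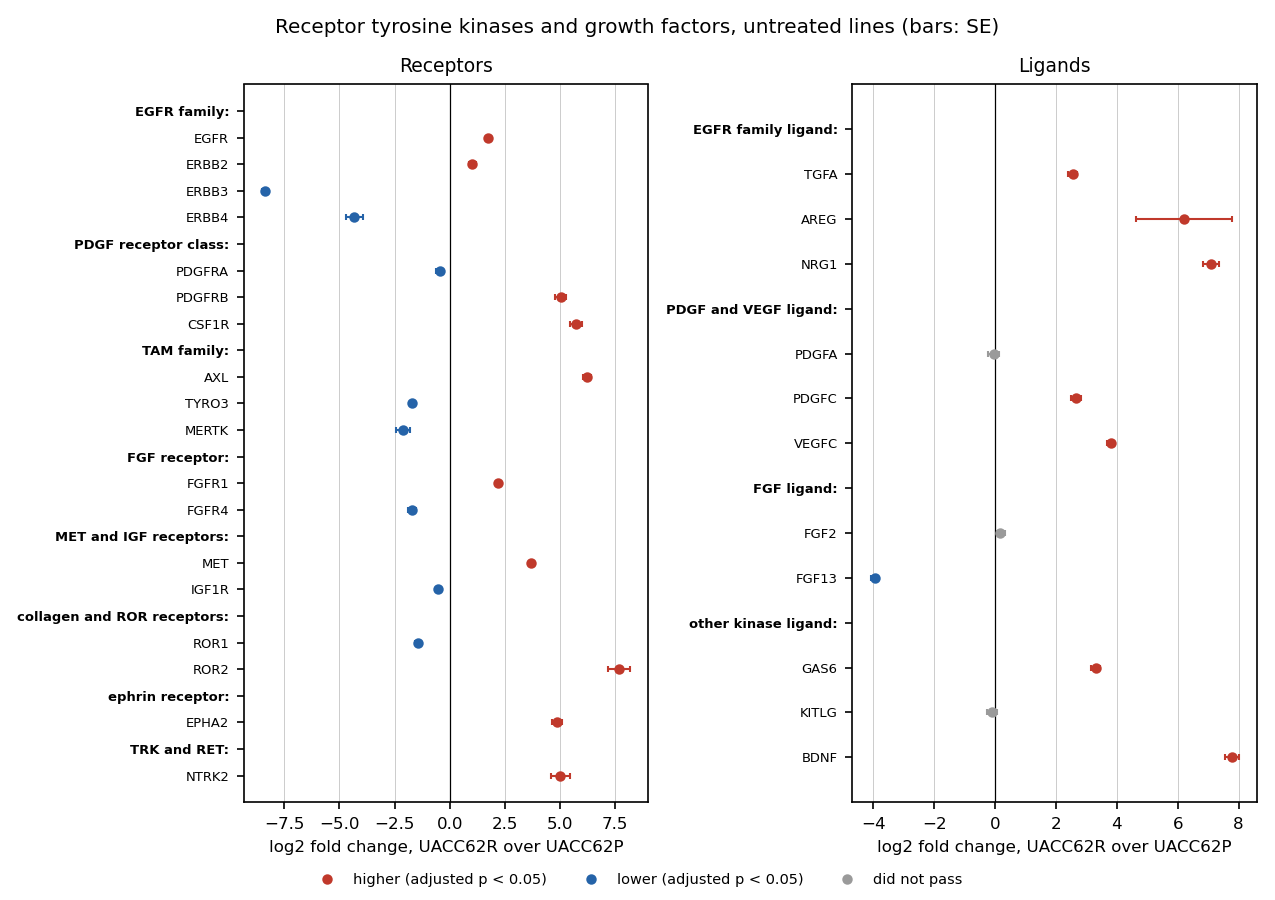
Log2 fold change (UACC62R over UACC62P, untreated) of the receptor tyrosine kinases and growth factors named in the text, grouped by family, with bars of 1 SE and colours for higher, lower or did not pass. Receptors of one family lie on both sides of 0 (AXL against TYRO3 and MERTK, EGFR against ERBB3 and ERBB4), whereas most ligands lie to the right; values of genes with at most 3 reads in one line, such as AREG and ROR2, depend on the prior count.

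Of 21 tested members of the RAS-RAF-MEK-ERK cascade, 10 were higher (47.6%, against 27.8% of all genes), 3 of them beyond 2-fold (14.3%, against 11.4%), and 3 lower (14.3%, against 26.1%; 6 lower with the replicate block). The median log2 fold change was 0.25. BRAF, the drug's target, did not pass, with 41.8 and 36.5 CPM against 34.9 and 34.8 CPM (log2 fold change -0.17 ± 0.11, adjusted p = 0.202). NRAS (137 and 140 CPM against 123 and 131 CPM) and NF1, an inhibitor of RAS (87.8 and 75.3 CPM against 112 and 98.0 CPM), also did not pass, nor did MAP3K8, a kinase that can bypass RAF. The NF1 result depends on the processing: its adjusted p was 0.0556, but it was higher in 6 of 11 alternatives (adjusted p from 0.000379 to 0.0414), with the replicate block among them (0.000413). MRAS, a RAS relative in the phosphatase complex that activates RAF, was higher (39.0 and 30.2 CPM against 93.8 and 96.4 CPM), as was RASA1, a GTPase-activating protein that turns RAS off (41.6 and 43.8 CPM against 124 and 114 CPM). The MEK genes lay apart, MAP2K1 upward (60.1 and 53.1 CPM against 80.8 and 76.7 CPM) and MAP2K2 downward (298 and 308 CPM against 175 and 161 CPM). The call for MAP2K1 is lost with all 16 libraries (adjusted p = 0.0829), in which 6 list members were higher. RNA level says nothing of mutation, splicing or phosphorylation of these kinases.

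Of 23 tested genes that ERK induces, 6 were higher (26.1%, against 27.8% of all genes), 10 lower (43.5%, against 26.1%) and 7 did not pass, with a median log2 fold change of -0.25. The phosphatases DUSP4 and DUSP6, which dephosphorylate ERK, did not pass: DUSP6 stood at 243 and 235 CPM against 229 and 186 CPM (adjusted p = 0.228; it was lower with the replicate block, adjusted p = 0.0197) and DUSP4 at 755 and 672 CPM against 692 and 544 CPM (adjusted p = 0.322). SPRY4, a feedback inhibitor upstream of RAF, was lower, at 1033 and 911 CPM against 232 and 161 CPM, and ETV4, an ETS factor, at 233 and 218 CPM against 73.9 and 56.9 CPM. The early genes FOS, EGR1 and MYC were also lower, and MYC stood at 226 and 187 CPM against 39.6 and 36.8 CPM, a log2 fold change of -2.44 ± 0.11 (SE). In the other direction CCND1, cyclin D1, stood at 181 and 156 CPM against 643 and 580 CPM, and FOSL1, an AP-1 subunit stabilized by ERK, at 175 and 185 CPM against 487 and 505 CPM. Genes of 1 pathway output thus lay on both sides of 0. The call for EGR1 is lost with all 16 libraries (adjusted p = 0.0552). Vemurafenib, which acts on this pathway, was in the medium of UACC62R and is not stated for UACC62P. Its part in these values cannot be told apart.

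Genes of the PI3K, AKT and mTOR pathway, the other main route downstream of these receptors, had 6 of 23 higher (26.1%, near the 27.8% of all genes; 3 with all 16 libraries) and 9 lower (39.1%, against 26.1%). The 3 that passed the 2-fold test were lower, among them SGK1, a kinase related to AKT (619 and 585 CPM against 163 and 164 CPM), and DEPTOR, an inhibitor of mTOR (18.1 and 19.3 CPM against 5.44 and 5.45 CPM).

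**Figure D4:**
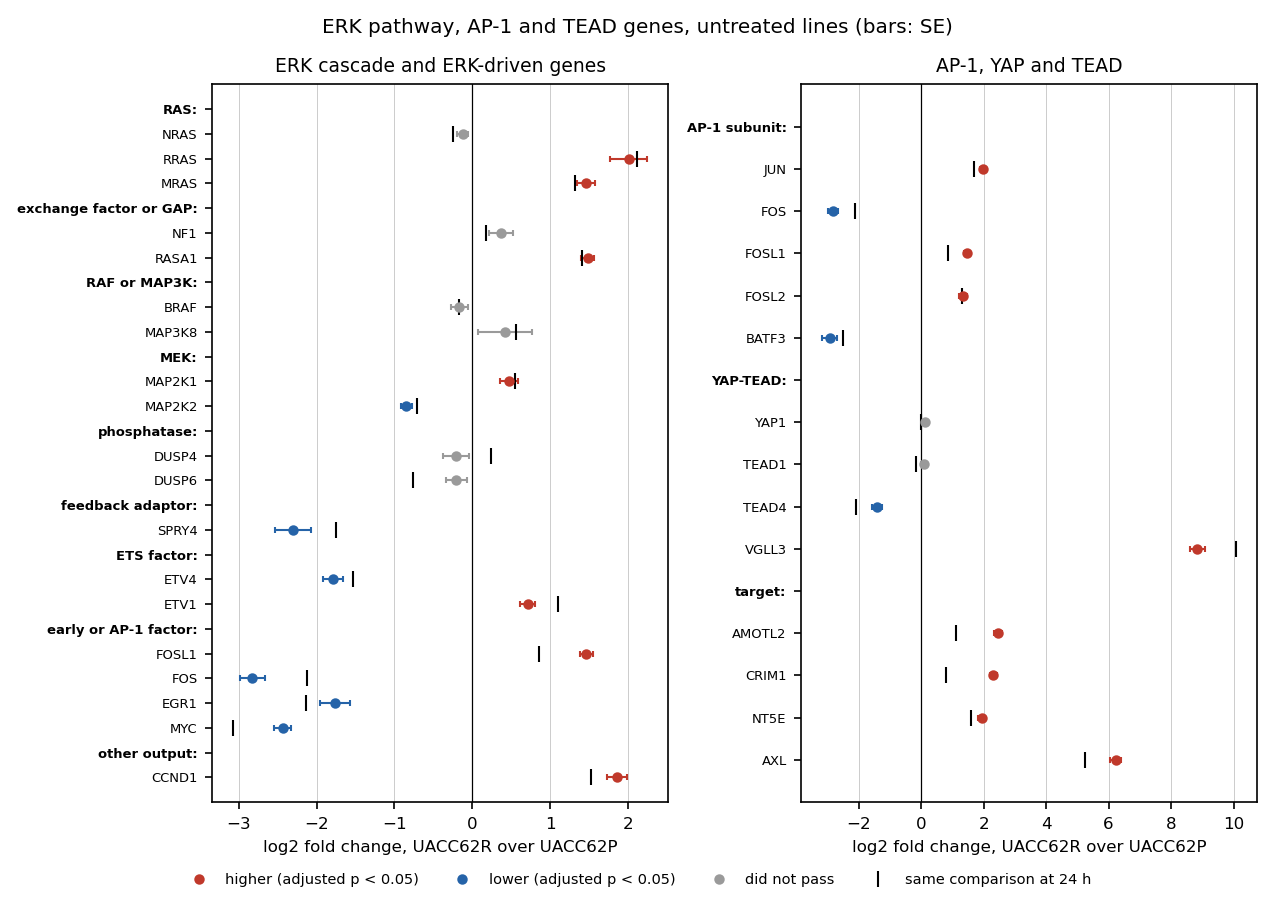
Log2 fold change (UACC62R over UACC62P) of the ERK cascade, ERK-driven, AP-1 and TEAD genes named in the text, in the untreated lines, with bars of 1 SE, and black ticks for the same comparison after 24 h in CCG-222740. Most of the cascade lies within 1 of 0 (RRAS, MRAS and RASA1 lie above), and its outputs spread from FOS and MYC on the left to FOSL1 and CCND1 on the right; YAP1 and TEAD1 lie near 0 and VGLL3 far to the right.

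Among 29 tested genes of AP-1 and of the YAP and TEAD pathway, 13 were higher (44.8%, against 27.8% of all genes). Another 10 were lower (34.5%, against 26.1%). The RNA of AP-1 subunits differed in both directions, and the make-up of the protein complex was not measured. Of 12 subunits tested, 3 were higher (25%, near the 27.8% of all genes) and 7 lower (58.3%, against 26.1%). JUN (26.2 and 25.2 CPM against 105 and 96.8 CPM), FOSL1 and FOSL2 (89.4 and 82.1 CPM against 233 and 201 CPM) were the 3 that rose. FOS went from 22.7 and 20.9 CPM to 2.54 and 3.60 CPM and BATF3 from 10.8 and 8.94 CPM to 1.42 and 1.16 CPM.

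Of the 10 genes of the YAP and TEAD machinery, 4 were higher (40%, against 27.8% of all genes) and 3 lower (30%, against 26.1%). YAP1 (127 and 125 CPM against 136 and 136 CPM, adjusted p = 0.239) and TEAD1 (187 and 172 CPM against 195 and 188 CPM, adjusted p = 0.442) did not pass, and TEAD4 was lower (58.9 and 54.8 CPM against 21.4 and 20.8 CPM). VGLL3, a TEAD cofactor, rose from 0.0693 and 0.0721 CPM to 33.7 and 35.1 CPM, a log2 fold change of 8.84 ± 0.25 (SE). Of 7 genes listed as their targets 6 were higher, among them AMOTL2 (21.4 and 17.0 CPM against 112 and 98.9 CPM) and CRIM1 (94.3 and 78.3 CPM against 413 and 443 CPM). The matricellular targets CCN1 (9.45 and 10.8 CPM against 95.1 and 93.6 CPM) and CCN2 (18.5 and 21.1 CPM against 111 and 101 CPM) were higher as well.

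In the promoter windows of genes higher beyond 2-fold, 234 of 2314 (10.1%) held the AP-1 motif TGANTCA, against 5.85% of all windows and 7.24% of those of genes lower beyond 2-fold. The TEAD motif GGAATG was in 13.9% of windows of the higher genes, 11.6% of the lower and 11.8% of all. CATGTG was in 10.3% and 10.7% of the windows of higher and lower genes, close to each other. Only 12577 of 17916 tested genes with a symbol had a window, and enhancers lie outside these windows. Below are windows of genes that were higher in UACC62R, each on the minus strand. They were picked by hand to show a motif and are not typical, since most windows of the higher genes lack it. Capitals mark GGAATG for CCN2 (chr6:131951323-131951622, at 169, 104 and 95 bases before the gene start). They mark TGANTCA for IL11 (chr19:55370414-55370713, at 96 bases) and PLAUR (chr19:43670120-43670419, at 186 bases).
CCN2: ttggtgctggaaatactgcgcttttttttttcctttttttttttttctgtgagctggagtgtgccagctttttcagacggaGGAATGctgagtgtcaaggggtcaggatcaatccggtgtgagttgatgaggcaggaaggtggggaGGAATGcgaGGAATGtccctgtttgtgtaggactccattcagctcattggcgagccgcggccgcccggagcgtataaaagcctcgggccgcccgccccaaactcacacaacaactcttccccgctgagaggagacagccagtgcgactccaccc
IL11: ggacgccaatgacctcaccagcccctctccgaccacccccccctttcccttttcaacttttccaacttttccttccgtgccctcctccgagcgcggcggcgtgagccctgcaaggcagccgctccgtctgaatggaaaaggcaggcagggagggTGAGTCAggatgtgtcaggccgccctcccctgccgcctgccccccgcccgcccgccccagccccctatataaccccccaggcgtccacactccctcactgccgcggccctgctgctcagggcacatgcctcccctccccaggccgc
PLAUR: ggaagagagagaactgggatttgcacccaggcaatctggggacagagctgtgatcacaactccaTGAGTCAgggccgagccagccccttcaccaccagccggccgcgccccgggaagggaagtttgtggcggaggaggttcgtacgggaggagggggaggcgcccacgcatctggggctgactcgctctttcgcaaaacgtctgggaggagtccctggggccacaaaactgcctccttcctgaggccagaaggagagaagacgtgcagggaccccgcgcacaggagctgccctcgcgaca

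Extracellular matrix genes were mostly higher. Of 41 tested genes of collagens and their processing, 27 were higher (65.9%, against 27.8% of all genes) and 5 lower (12.2%, against 26.1%). Beyond 2-fold 21 were higher (51.2%, against 11.4%), and the median log2 fold change was 1.77. COL1A1 (ENSG00000108821), a chain of type I collagen, stood at 4.92 and 3.06 CPM against 380 and 453 CPM, but COL1A2, the chain it is normally assembled with, was lower, at 4.43 and 4.68 CPM against 2.21 and 2.35 CPM. The fibrillar COL5A1 rose from 4.99 and 4.86 CPM to 863 and 903 CPM, and COL6A3, of the microfibrillar type VI, from 2.11 and 1.15 CPM to 311 and 253 CPM. The basement membrane chains COL4A1 and COL4A2 did not pass, but COL4A1 (adjusted p = 0.0787) was higher in 6 of 11 alternatives (adjusted p from 0.0132 to 0.0418), with the replicate block among them (0.0403). The cartilage chains of type IX went the other way: COL9A3 fell from 339 and 353 CPM to 3.13 and 2.07 CPM, and COL9A1 from 44.8 and 39.3 CPM to 0 reads (at least 875-fold lower). Lysyl oxidases, which crosslink collagen, were exchanged, with LOXL2 at 388 and 302 CPM against 2877 and 2831 CPM and LOXL3 at 1504 and 1255 CPM against 208 and 205 CPM.

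Of 37 tested laminins and matrix glycoproteins, 24 were higher (64.9%, against 27.8% of all genes) and 7 lower (18.9%, against 26.1%). Beyond 2-fold 16 were higher (43.2%, against 11.4%) and 1 lower (2.7%, against 6.1%). The median log2 fold change was 1.43. The biggest increases in CPM among all genes higher beyond 2-fold were here: FN1, fibronectin (ENSG00000115414), stood at 652 and 415 CPM against 10162 and 8936 CPM, and THBS1, thrombospondin 1 (ENSG00000137801), at 130 and 160 CPM against 8621 and 9558 CPM. FBN1, of elastic microfibrils, rose 12.7-fold and TGFBI, an integrin-binding matrix protein, from 3.43 and 3.93 CPM to 123 and 160 CPM. SPP1, osteopontin, stood at 23.1 and 21.6 CPM against 230 and 250 CPM. The laminins differed by chain. LAMB3, a chain of the epithelial laminin 332, was higher (23.5 and 18.1 CPM against 109 and 80.7 CPM). LAMA4 and LAMC1 were lower (883 and 729 CPM against 378 and 398 CPM for LAMA4). TNC, tenascin C, was lower too, at 1851 and 1418 CPM against 784 and 813 CPM.

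Integrins, the receptors for these proteins, were partly exchanged. Of 33 tested integrins and linkers, 22 were higher (66.7%, against 27.8% of all genes) and 6 lower (18.2%, against 26.1%). The median log2 fold change was 0.85. Of 13 alpha subunits, 8 were higher (61.5%) and 3 lower (23.1%, near the 26.1% of all genes). ITGA3 (ENSG00000005884), which binds laminin 332, stood at 95.6 and 63.6 CPM against 3588 and 2844 CPM. The collagen-binding ITGA2 (25.6 and 21.2 CPM against 509 and 487 CPM) and ITGA11 (2.63 and 1.73 CPM against 440 and 315 CPM) were higher, as was the fibronectin receptor ITGA5 (432 and 340 CPM against 1402 and 1314 CPM). The subunits that fell were ITGA6 (523 and 514 CPM against 171 and 156 CPM), ITGA9 (65.2 and 52.0 CPM against 1.29 and 1.35 CPM) and ITGA10, a receptor for cartilage collagens (32.6 and 27.2 CPM against 1.78 and 1.19 CPM). ITGB1, the beta subunit they share, was higher by 2.24-fold. Of 13 linkers to actin, 10 were higher and 1 lower, the largest being TNS1, a tensin (2.01 and 1.48 CPM against 141 and 114 CPM).

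The actin cytoskeleton followed with smaller steps: of 28 tested genes 17 were higher (60.7%, against 27.8% of all genes) and 5 lower (17.9%, against 26.1%). Only 5 of the 17 were beyond 2-fold (17.9%, against 11.4%). TPM1, a tropomyosin, stood at 60.0 and 59.6 CPM against 311 and 370 CPM, and MYH9, the heavy chain of nonmuscle myosin IIA, at 674 and 542 CPM against 2075 and 1926 CPM, whereas MYH10, that of myosin IIB, was lower (473 and 453 CPM against 119 and 121 CPM).

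Of 34 tested metalloproteases, related proteases and inhibitors, 18 were higher (52.9%, against 27.8% of all genes) and 8 lower (23.5%, near 26.1%). On the list 5 genes had 0 reads in UACC62P, and those of them that were tested could not come out lower. The plasminogen system had 4 higher (66.7%) and 2 lower (33.3%) of 6 tested, against 27.8% and 26.1% of all genes. PLAUR, the urokinase receptor, stood at 50 and 40.4 CPM against 197 and 181 CPM. SERPINE2, an inhibitor of this system, lost the most CPM of all genes lower beyond 2-fold, at 6417 and 5782 CPM against 1840 and 1614 CPM. The gelatinase MMP2 was higher (193 and 161 CPM against 592 and 619 CPM) while the membrane types MMP15, MMP16 and MMP17 were lower, MMP17 at 196 and 191 CPM against 49.2 and 41.1 CPM. MMP14, which activates MMP2, did not pass (1593 and 1377 CPM against 1431 and 1150 CPM, adjusted p = 0.211; lower with the replicate block, adjusted p = 0.022, and with no filter on low counts, adjusted p = 0.0407), and neither did TIMP1, an inhibitor of metalloproteases.

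Genes of TGF-beta, BMP and WNT signalling differed by member. Of 43 tested, 17 were higher (39.5%, against 27.8% of all genes) and 14 lower (32.6%, against 26.1%). Of 7 tested TGF-beta and activin ligands, 2 were higher (28.6%, near the 27.8% of all genes) and 4 lower (57.1%, against 26.1%). TGFB1 rose from 128 and 89.0 CPM to 374 and 341 CPM. TGFB3 fell from 68.2 and 61.0 CPM to 12.2 and 9.17 CPM and TGFB2 from 5.16 and 4 CPM to 0.396 and 0.313 CPM. The receptor TGFBR2 was higher by 4.20-fold. ID1, a BMP target, was higher (31.8 and 34.7 CPM against 171 and 151 CPM) and ID4 lower (58.6 and 57.7 CPM against 5.04 and 5.26 CPM). WNT5A, a noncanonical WNT of invasive melanoma, went from 6.41 and 5.08 CPM to 199 and 199 CPM, and DKK1, an inhibitor of canonical WNT, from 0.658 and 0.793 CPM to 139 and 158 CPM. AXIN2, a canonical WNT target, did not pass (4.12 and 3.42 CPM against 3.53 and 3.54 CPM, adjusted p = 0.732).

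Cytokine and chemokine genes were mostly higher. Of 35 tested genes of these families and NF-kB, 24 were higher (68.6%, against 27.8% of all genes) and 3 lower (8.57%, against 26.1%). Beyond 2-fold 17 were higher (48.6%, against 11.4%), and the median log2 fold change was 1.72. In UACC62P 2 of 12 interleukins and colony-stimulating factors and 1 of 7 TNF family genes had 0 reads. Those could not come out lower, so the counts and median lean upward. Of 9 listed CXC chemokines, 4 had too few reads to be tested, and the other 5 were higher. Of those 5, 1 had 0 reads in UACC62P and could not come out lower, and another had 1 read there. CXCL8, interleukin 8, stood at 14 and 8.29 CPM against 231 and 292 CPM. IL11, a fibrogenic cytokine, stood at 1.11 and 0.685 CPM against 18.0 and 27.3 CPM and CSF1, the ligand of CSF1R, at 12.7 and 10.2 CPM against 75 and 60.8 CPM. IL7 had 0 reads in UACC62P and 4.68 and 4.19 CPM in UACC62R. Of 9 NF-kB genes 2 were higher (22.2%, against 27.8% of all genes) and 3 lower (33.3%, against 26.1%), and RELA did not pass.

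HLA class I genes and peptide loading genes were mostly higher (5 of 6 and 6 of 9 tested), and 2 of 6 class II genes were. Their list of 39 tested genes also held immune checkpoints and melanoma antigens. In it 23 were higher (59.0%, against 27.8% of all genes) and 4 lower (10.3%, against 26.1%, and 2 with all 16 libraries). Beyond 2-fold 11 were higher (28.2%, against 11.4%). These were 4 class I genes, 4 of 9 checkpoints and 3 of 9 antigens, with 0 for peptide loading and 0 of class II. HLA-B stood at 25 and 21 CPM against 209 and 232 CPM, and HLA-C at 41.2 and 38.3 CPM against 156 and 169 CPM. B2M, their shared light chain, rose by 0.45 on the log2 scale, and HLA-E did not pass. Reads of the HLA genes depend on the match of their alleles to the reference. CD274, which encodes PD-L1, did not pass and was under 1 CPM in every library, while NT5E, the adenosine-producing CD73, was higher (62.2 and 55.8 CPM against 226 and 224 CPM). The cancer-testis antigens MAGEC1 (4.22 and 3.24 CPM against 118 and 129 CPM) and MAGEC2 were also higher.

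In the BCL2 family and death receptor list, 10 of 25 were higher (40%, against 27.8% of all genes). This count was 3 with all 16 libraries, and it also fell without UACC62P replicate 1. The 7 that were lower made 28%, near the 26.1% of all genes. Only 3, all lower, passed the 2-fold test (12%, against 6.1%). Those were BCL2A1, a survival gene that MITF controls (37.1 and 41.3 CPM against 2.08 and 1.94 CPM), BCL2 (10.6 and 11.3 CPM against 1.48 and 2.50 CPM) and HRK, a pro-death member (12.3 and 14.6 CPM against 0.725 and 0.282 CPM). BCL2L1, which encodes BCL-XL, was higher by 1.76-fold and MCL1 did not pass. Among 26 tested G1 regulators and tumour suppressors, 5 were higher (19.2%, against 27.8% of all genes) and 7 lower (26.9%, against 26.1%). Beside cyclin D1, CDKN1A, the inhibitor p21, was higher (241 and 185 CPM against 492 and 458 CPM), while CDK4 (199 and 203 CPM against 96.7 and 115 CPM) and CDK6 were lower. CDKN2A had 0 reads in all 4 libraries, while its chromosomal neighbour MTAP was expressed at 119 and 121 CPM against 121 and 121 CPM. The proliferation genes MKI67 (247 and 215 CPM against 195 and 244 CPM), PCNA, TOP2A and E2F1 did not pass. TOP2A (adjusted p = 0.0756) was higher in 5 of 11 alternatives (adjusted p from 2.42e-08 to 0.0471), among them the replicate block (0.00495) and without UACC62R replicate 1 (0.0326).

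Of 38 tested genes of drug efflux, detoxification and redox, 24 were higher (63.2%, against 27.8% of all genes). Another 6 were lower (15.8%, against 26.1%). Beyond 2-fold 10 were higher (26.3%, against 11.4%). The efflux pumps ABCG2 (1.45 and 1.04 CPM against 17.3 and 22.9 CPM), ABCC2 (4.64 and 5.51 CPM against 43.8 and 44.1 CPM) and ABCC3 were higher, ABCB5, a pump of melanoma-initiating cells, was lower (13 and 11.3 CPM against 0.33 and 0 CPM), and ABCB1 did not pass. ALDH1A1, an aldehyde dehydrogenase, was lower (19.9 and 18.0 CPM against 0.824 and 1.38 CPM), while MGST1, a glutathione transferase, was higher (39.7 and 36.1 CPM against 293 and 325 CPM).

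Of 41 tested genes of energy metabolism, 11 were higher (26.8%, near the 27.8% of all genes) and 19 lower (46.3%, against 26.1%). Among the lower ones 11 were beyond 2-fold. None of the 5 genes of mitochondrial biogenesis was higher and 4 were lower (80%, against 26.1%). PPARGC1A, a coactivator that MITF induces, stood at 15.2 and 9.69 CPM against 5.44 and 5.17 CPM, and PPARGC1B, its relative, at 48.2 and 45.5 CPM against 5.47 and 5.57 CPM (log2 fold change -3.08 ± 0.12, SE). ATP5F1B, the beta subunit of mitochondrial ATP synthase, was lower by 2.27-fold, at 1869 and 1911 CPM against 826 and 841 CPM. SCD, the stearoyl-CoA desaturase, stood at 310 and 241 CPM against 64.5 and 54.2 CPM and FABP5, a fatty acid carrier, at 22.9 and 27.2 CPM against 4.38 and 5.38 CPM. The fatty acid receptor CD36 (0.623 and 0.685 CPM against 2.80 and 3.98 CPM) and CPT1A, which admits fatty acids to mitochondria, were higher. The glucose transporter SLC2A1 was higher (226 and 196 CPM against 683 and 572 CPM), while HK2, hexokinase 2, was lower (472 and 467 CPM against 238 and 172 CPM).

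Of 38 tested channels and neuronal genes, 24 were higher (63.2%, against 27.8% of all genes) and 7 lower (18.4%, against 26.1%). Beyond 2-fold 17 were higher (44.7%, against 11.4%), and the median log2 fold change was 1.30. The 8 potassium channels on the list were higher, 7 of them beyond 2-fold. Of these, 3 had 0 reads in UACC62P and could not come out lower. KCNG4, a potassium channel subunit outside the list, was lower. The calcium channel subunits CACNA1C (0.0693 and 0.180 CPM against 26.5 and 28.5 CPM) and CACNA2D3 (0.104 and 0.0360 CPM against 60.5 and 53.2 CPM) were nearly silent in UACC62P. Of 16 guidance genes 9 were higher (56.25%, against 27.8% of all genes) and 4 lower (25%, near 26.1%). The neuropilins were exchanged, NRP1 rising from 92.8 and 94.1 CPM to 723 and 616 CPM and NRP2 falling from 781 and 702 CPM to 147 and 200 CPM, and NTN4, a netrin, rose from 0.9 and 0.901 CPM to 67.7 and 68.6 CPM. ROBO2, a receptor for SLIT proteins, fell from 65.4 and 64.4 CPM to 2.67 and 3.54 CPM while SLIT2 rose from 0.727 and 0.865 CPM to 39.3 and 46.0 CPM.

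Some genes were all but restricted to 1 line. With at most 3 reads over both libraries of UACC62P, 23 genes reached a mean of 10 CPM in UACC62R, and 15 did so the other way. In the first set KRT34, a hair keratin, had 0 reads in UACC62P and 13.8 and 23.6 CPM in UACC62R (at least 356-fold higher). VCAM1, a leukocyte adhesion molecule, had 2 reads in UACC62P against 1153 (ratio 524, 95% exact counting interval 145 to 4334), and ROS1, a receptor tyrosine kinase, 2 against 1170. PTGFR, the prostaglandin F receptor, had 1 read against 989. In the second set RLBP1, a retinoid-binding protein, had 1923 reads in UACC62P and 1 in UACC62R (ratio 2115, interval 379 to 83566), and KCNG4 3030 and 3. TRIM63, a ubiquitin ligase that MITF family factors control, had 711 reads and 1. The counting intervals cover counting error only.

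The largest changes in CPM also included STC1, the secreted glycoprotein stanniocalcin 1 (36.7 and 21.1 CPM against 1500 and 1384 CPM), CD44, the hyaluronan receptor (882 and 854 CPM against 2179 and 2259 CPM), and PLEC, the cytoskeletal linker plectin, higher by 2.99-fold. On the other side were SDC3, a heparan sulfate proteoglycan (1430 and 1102 CPM against 51.6 and 34.4 CPM), ST6GAL1, a sialyltransferase (833 and 734 CPM against 32.3 and 25.6 CPM), ANKS1A, an adaptor of receptor kinases (843 and 874 CPM against 39.5 and 37.1 CPM), and CD63, a tetraspanin of lysosomes and melanosomes (1594 and 1486 CPM against 620 and 565 CPM).

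Markers of other cell types were read in the same libraries. Of 17 fibroblast markers 14 were tested, 7 higher (50%, against 27.8% of all genes) and 4 lower (28.6%, near 26.1%). Their summed level was 64.8 and 66.5 CPM in UACC62P and 539 and 648 CPM in UACC62R, of which COL1A1 gave the larger share. FAP (6.89 and 8.29 CPM against 50.6 and 66.9 CPM), PDGFRB and COL3A1 were among those higher, COL1A2, PDGFRA, S100A4 and TWIST2 were lower (2 of the 4 without UACC62P replicate 2 or UACC62R replicate 2, the calls of PDGFRA and TWIST2 being lost there and, in all, in 8 and 5 of 11 alternatives), DCN did not pass and CD248 had 0 reads in all 4 libraries. In UACC62P 5 of the 17 had no read and in UACC62R 1. The part of other cells in the matrix results was not tested. The 14 epithelial markers summed to 38.7 and 37.3 CPM against 85.4 and 76.5 CPM, with CDH1, KRT5 and GRHL2 at 0 reads in both lines, KRT8 and KRT18 higher and the splicing factor ESRP1 lower. The 11 endothelial markers summed to 43.0 and 35.1 CPM against 45.1 and 42.4 CPM, with PECAM1 and CDH5 at 0, and the 11 blood markers to 4.4 and 2.56 CPM against 2.08 and 2.22 CPM, with CD3E, MS4A1, TYROBP and HBB at 0.

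The same comparison was made in the libraries at 6 and 24 h. Their levels do not enter the fold changes at 0 h, but all times share 1 estimate of spread, so the calls at different times are not independent. At 6 h in CCG-222740, 5583 of the 5642 genes higher at 0 h had the same direction and 4718 passed again, and of the 5297 lower ones 5240 and 4486. The libraries at 24 h gave 5540 and 4696 of the higher and 5183 and 4532 of the lower. Over the lists, 333 genes were higher and 198 lower at 0 h, and 330 and 198 of them kept their direction at 6 h and 323 and 193 at 24 h. SOX10 had log2 fold changes of -5.03, -5.17 and -4.87 at 0, 6 and 24 h, and AXL of 6.23, 5.83 and 5.24. CRIM1 (2.31, 2.00 and 0.80) and CCN2 (2.42, 3.10 and 1.21) stood nearer to 0 at 24 h. Of list genes higher at 0 h, HMOX1, SLC1A5 and WNT5B had a negative log2 fold change at 6 h, and their calls at 0 h were lost when certain untreated libraries were left out, UACC62R replicate 1 for all 3 (adjusted p = 0.0948, 0.171 and 0.0778). All of these libraries carried the compound, and vemurafenib is not stated for the treated UACC62R libraries, so they hold the line difference together with both.

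**Figure D5:**
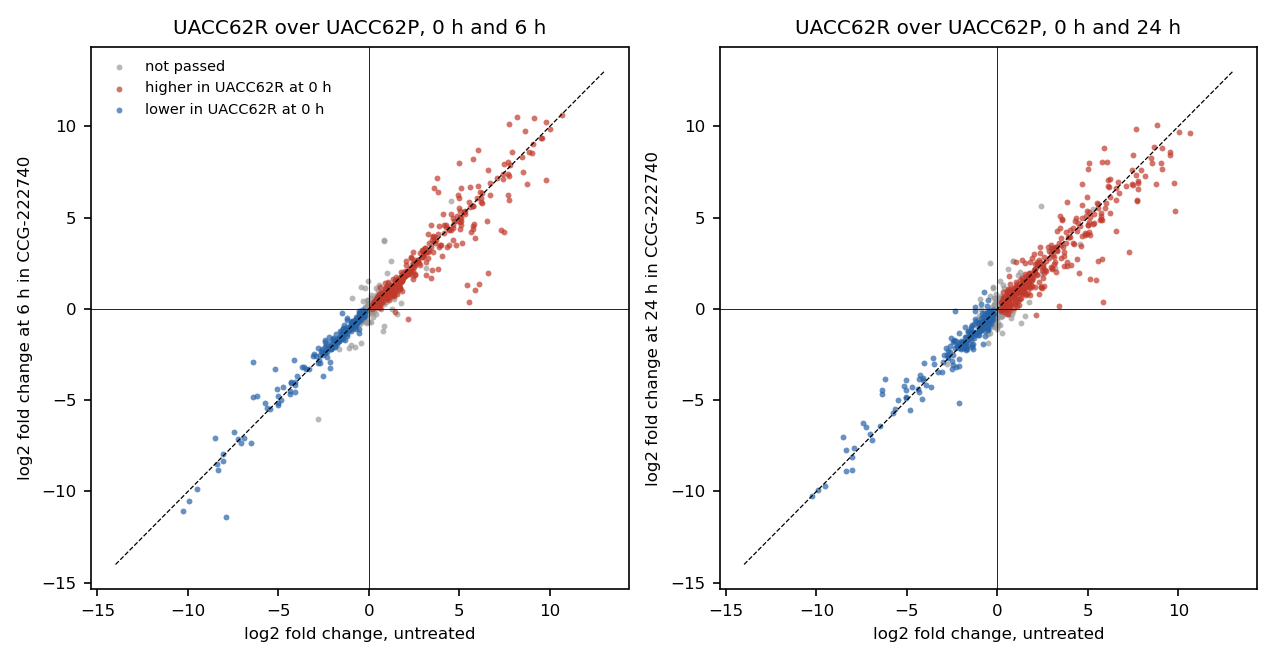
Log2 fold change (UACC62R over UACC62P) of each tested list member in the untreated libraries (x axis) and after 6 h (left) or 24 h (right) in CCG-222740 (y axis), coloured by the untreated call; the dashed line marks equal values. Points follow the line on both sides of 0, with more spread above 5 and below -5, where one line has few reads.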

How the data were processed

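RNA was measured in 16 libraries of UACC62P and UACC62R by stranded mRNA sequencing. The authors deposited raw read counts per gene ID for each library. Counting with HTSeq 0.6.1 and alignment to hg19 with HISAT2 2.1.0 are named per the submitters' processing notes, as are Trimmomatic 0.33 and FastQC 0.11.5 and, for base calls, bcl2fastq 2.19.0. Their settings, strand included, are not stated there, so reads of antisense or overlapping genes may be miscounted. The 5 summary lines per file (unaligned, not unique and the like) were kept out of library sizes; not unique reads were 18.6 to 21.0% in the untreated libraries, which lowers genes with near-identical copies.

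From the counts, edgeR 4.0.16 in R 4.3.3 gave TMM-scaled CPM, a filter on low counts and a quasi-likelihood F test per gene over 15 libraries in 8 groups, with 7 residual degrees of freedom. Every adjusted p is this test's with Benjamini-Hochberg adjustment over 20280 genes at 0.05; differences beyond 2-fold were tested with glmTreat, and each SE is the absolute log2 value over the square root of its F. A ratio for a gene with at most 3 reads in a line comes from the reads with a 95% exact interval, and with 0 reads from a floor of 3 reads over both libraries. The test was checked on simulated data.

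The members and gene lists were chosen with earlier results of these data known. Lists hold 768 distinct genes in 27 groups. Genes named by rule were the 12 each way with the largest CPM difference beyond 2-fold, 10 each way with at most 3 reads in one line, and per list up to 8 called with the largest fold and 3 that did not pass with the highest CPM, with a short list of lineage, ERK and resistance genes always named. Of 231 genes named, 159 follow this rule and the others were chosen after their values were seen. Same-numbered libraries deviated alike: all 21 correlations of their deviations, over 8360 genes, were between 0.179 and 0.718. Replicate numbers may therefore pair libraries, though no label states it. The main fit has no term for replicate number (the replicate block), so its SE and adjusted p ignore such pairing. With the block the common dispersion was 0.00425 in place of 0.00985, and some genes given as not passing were called. Alternatives were other library sets, scalings and filters, the replicate block and DESeq2 1.42.0. Some genes that the rule selects are not reported here. Promoter windows are RefSeq's, matched by symbol.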

Additional observations from a re-analysis of the deposited data

How the results depend on the processing

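The counts of genes different at 0 h kept within 1.5 times under every alternative run except the fit of all 16 libraries, in which 1 gene was higher and 0 lower beyond 2-fold. That fit also gave 3569 higher and 3246 lower at 6 h, in place of 5368 and 5065; its dispersion rose with the added library. With the replicate block 6090 genes were higher and 5806 lower at 0 h, and 2458 and 1329 beyond 2-fold. Leaving out each untreated library in turn gave 4646 to 4949 higher and 4536 to 4681 lower, and 1818 to 2054 and 1055 to 1146 beyond 2-fold. DESeq2 called 5559 higher and 4797 lower. Among genes named, signs turned only in some that did not pass. Leaving out each untreated library gave log2 fold changes of AXIN2 -0.22 to 0.046, COL4A2 -0.033 to 0.13, FGF2 -0.061 to 0.37, KITLG -0.31 to 0.079, MAGEA3 -0.077 to 0.10, MCL1 -0.15 to 0.048, MKI67 -0.24 to 0.071, MTAP -0.0020 to 0.019, PDGFA -0.26 to 0.14, RELA -0.10 to 0.037, TYRP1 -0.56 to 0.21. Scaling by library size alone gave log2 fold changes of 0.037 for MCL1, 0.0066 for MKI67, 0.033 for PCNA, 0.032 for PDGFA, 0.046 for RELA. DESeq2's size factors gave log2 fold changes of 0.0017 for RELA. DESeq2 gave log2 fold changes of 0.0016 for RELA. The cause of these turns was not tested. With a library left out, the lone one is assumed to vary like the other groups. Each line has 2 untreated libraries, and genes with a few reads are the least certain.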
